A study of Nicotiana tabacum with 6 samples.

Results

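Gibberellin genes were followed here in tobacco explants after 2 weeks on a medium with 0.1 mg/L of the synthetic auxin NAA (naphthaleneacetic acid), called low NAA, or with 0.5 mg/L, called high NAA. A gene was included when the protein matched to it in the deposited table was described with a word for gibberellin, DELLA, ent-kaurene, ent-kaurenoic acid, ent-copalyl diphosphate, snakin, GASA or GID1. This gave 69 of the 39825 loci of the table. By their descriptions they were 7 loci of early gibberellin synthesis, 10 described as 20-oxidases, 3 as 3-oxidases and 20 as 2-oxidases, 3 receptors, 19 DELLA proteins and 7 gibberellin-regulated proteins including snakin-2. RNA was sequenced in 6 libraries, 3 for each NAA concentration. By the study's methods tobacco explants were pieces of cotyledon, and its medium for callus and shoots held the cytokinin benzyladenine, kanamycin and Timentin at every NAA concentration. Whether the explants of these libraries had been infected with Agrobacterium tumefaciens carrying the study's gene editing vector is not given in the sources used here. The labels name the plant Nicotiana tabacum, the study's methods name Nicotiana benthamiana, and the locus identifiers belong to the N. benthamiana genome Niben261. The labels number the replicates and do not say whether they are separate cultures, so that p-values measure the spread between these libraries only.

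Gibberellins are diterpenoid hormones that promote stem elongation, leaf growth and germination. Plastid cyclases and membrane oxidases make their skeleton from geranylgeranyl diphosphate, 20-oxidases and 3-oxidases turn it into the active hormone, and 2-oxidases inactivate it. The active hormone binds the receptor GID1, which then takes hold of DELLA proteins, nuclear repressors of growth, and sends them to breakdown. In shoot meristems of Arabidopsis, KNOX homeobox proteins hold gibberellin low, in part by repressing a 20-oxidase gene and in part through 2-oxidase genes.

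FPKM, the unit of the table, relates the fragments of a gene to its length and to the size of the library. It summed to between 1140994 and 1155639 in the libraries on low NAA and to between 986722 and 1015420 on high NAA. The table holds no read counts. The steps between low values gave relative depths between 0.997 and 1.03 for the libraries on high NAA, and of 0.993 and 0.741 for replicates 2 and 3 on low NAA, against 1 for its replicate 1. Marker genes of green leaf cells (small subunits of Rubisco and chlorophyll a-b binding proteins) were present in all libraries and summed to between 7632 and 8442 FPKM on low NAA and between 2860 and 3850 on high NAA. Of the 46 green leaf markers tested, 39 fell and the other 7 did not pass the test. Marker sums of dividing cells (B-type cyclins) lay between 882 and 900 on low NAA and between 489 and 597 on high NAA. Secondary wall markers lay between 163 and 167 on low NAA and between 47.0 and 82.4 on high NAA, and shoot meristem markers (KNOTTED-type and WUSCHEL-type homeobox genes) between 563 and 586 in the former and 525 and 567 in the latter. Of the tested loci of these 3 lists, in this order, 1 of 23, 1 of 13 and 7 of 21 rose and 7, 9 and 5 fell. The shares that changed were 34.8%, 76.9% and 57.1%, and 84.8% for the green leaf list, where 41.9% of all loci tested changed. No marker of these 4 lists was at 0 in all 6 libraries. The part of these differences in the values that follow was not tested. In bulk tissue, fewer cells of a type and less RNA per cell cannot be told apart.

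Of the 69 gibberellin genes, 39 had a mean of at least 0.5 FPKM over the 6 libraries and were tested. Of these, 11 rose and 9 fell on high NAA (adjusted p under 0.05 from limma's moderated test on log2(FPKM + 1), adjusted by Benjamini-Hochberg over all 32443 loci tested). Without any one of the 3 libraries on low NAA, 5 genes fell. Changes of this kind were common in these explants, since 41.9% of all loci tested changed, 21.7% upwards and 20.2% downwards. The further threshold of the study's methods, a log2 fold change of at least 1 in either direction, was passed by 6 gibberellin genes that rose and 3 that fell, together 23.1% of those tested, and by 5 that fell when replicate 2 on high NAA was left out. Among all loci 5.86% passed both thresholds, 3.24% upwards and 2.62% downwards. In 11 of the 39 genes all 3 libraries on high NAA lay above all 3 on low NAA, and in 11 they lay below, where 28.8% and 25.9% of all loci did so, or 54.7% in either direction. The median log2 fold change was 0.13 for the 39 genes and 0.02 for all loci. Of the 39, 4 had a mean under 0.5 FPKM at one of the NAA concentrations and passed the minimum through the other. Of these 4, 2 are among the 9 past both thresholds. The other 30 genes stayed under the minimum, and none of them exceeded 1.05 FPKM in any library.

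**Figure D1:**
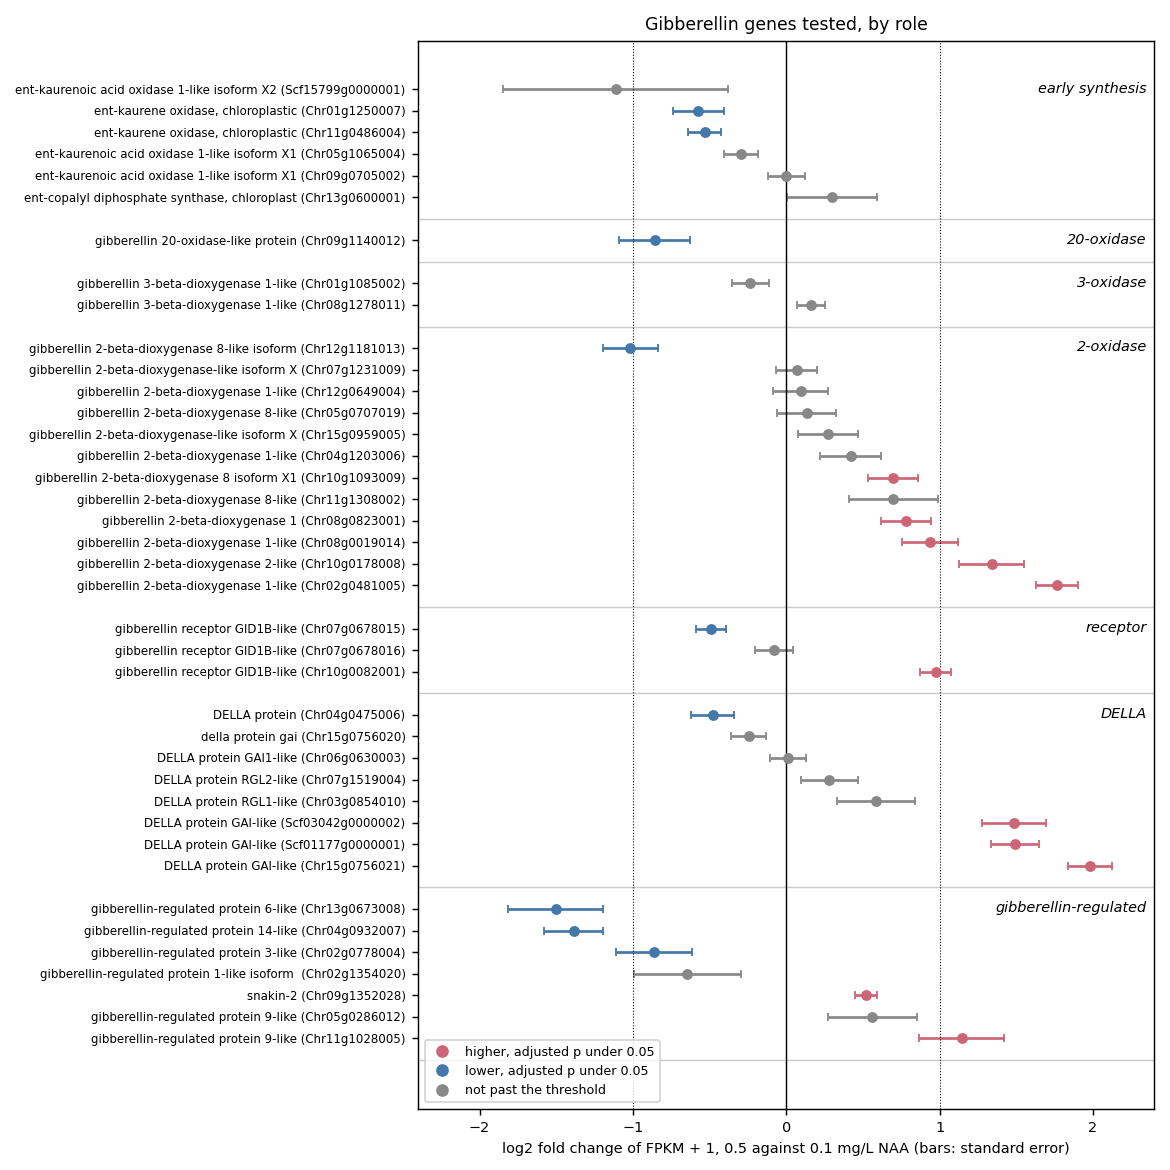
Log2 fold change of FPKM + 1 (horizontal axis, high against low NAA) of the 39 gibberellin genes tested, grouped by role, with the standard error as a bar and dotted lines at a log2 fold change of 1 and -1. Points for 2-oxidases lie mostly to the right of 0, those of the early synthesis genes mostly to the left, and receptors, DELLA proteins and gibberellin-regulated proteins lie on both sides.

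Among the early enzymes of synthesis both ent-kaurene oxidases were lower on high NAA. Of the 6 tested, 2 fell and 4 did not pass the test, so that 33.3% changed, where 41.9% of all loci did. Their median log2 fold change was -0.41 (-0.23 with libraries rescaled to the same total). The summed level of the 7 loci was 63.5 ± 3.06 FPKM on low NAA and 46.6 ± 5.27 on high NAA (SD, n = 3). Both that fell are described as ent-kaurene oxidase, the plastid enzyme that turns ent-kaurene into ent-kaurenoic acid. The more strongly expressed ent-kaurene oxidase (Niben261Chr11g0486004, chromosome 11) had 27.0, 28.6 and 30.1 FPKM in replicates 1, 2 and 3 on low NAA and 22.0, 19.9 and 16.7 FPKM on high NAA. Every library on high NAA lay below every library on low NAA, and the log2 fold change was -0.53 (SE, standard error, 0.11, limma adjusted p = 0.0071). The other ent-kaurene oxidase (Niben261Chr01g1250007, chromosome 1), named here after its values were seen, went from 10.1 ± 0.763 to 6.60 ± 1.67 FPKM (SD, n = 3). Its log2 fold change was -0.57 with a limma adjusted p = 0.028, and this call was lost when any library on low NAA was left out (adjusted p from 0.061 to 0.090 from limma) and with libraries rescaled to the same total (0.075).

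The ent-kaurenoic acid oxidases, which carry ent-kaurenoic acid on to the first gibberellin, did not pass the test. On chromosome 9 (Niben261Chr09g0705002) the level was 10.3 ± 0.536 FPKM on low NAA and 10.4 ± 1.55 on high NAA (SD, n = 3). On chromosome 5 (Niben261Chr05g1065004) it was 10.1 ± 1.04 and 8.05 ± 0.777 FPKM (SD, n = 3), with no overlap of the libraries and a log2 fold change of -0.29 (limma adjusted p = 0.068). It passed with median-of-ratios scaling and with quantile normalization (limma adjusted p = 0.044 and 0.018). The member of this class with the largest fold change, an ent-kaurenoic acid oxidase on an unplaced scaffold (Niben261Scf15799g0000001), rested on a single library. It was listed at 9.0, 0.99 and 0 FPKM on low NAA and at 0.19, 0.20 and 0.38 on high NAA, so that the libraries overlapped (log2 fold change -1.11, SE 0.73, limma adjusted p = 0.26). The ent-copalyl diphosphate synthase (Niben261Chr13g0600001, chromosome 13), which makes the first cyclic intermediate, had 0.797 ± 0.202 FPKM on low NAA and 1.33 ± 1.04 on high NAA (SD, n = 3; limma adjusted p = 0.45). A locus described as a partial ent-kaurene synthase stayed under the minimum. A locus outside the selection, described as ent-kaur-16-ene synthase (Niben261Chr18g0555016, chromosome 18), had 8.88 ± 0.550 and 10.1 ± 1.36 FPKM (SD, n = 3; log2 fold change 0.16, limma adjusted p = 0.28).

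Genes for the 20-oxidases, which catalyse the step that often limits synthesis, were barely expressed. Of the 10 loci so described, 9 were under the minimum, with no library above 0.71 FPKM. The exception was a gibberellin 20-oxidase-like protein (Niben261Chr09g1140012, chromosome 9) with 4.06, 3.91 and 2.93 FPKM on low NAA and 1.75, 2.27 and 0.82 FPKM on high NAA. It fell by 0.86 on the log2 scale (SE 0.23, limma adjusted p = 0.021), and the libraries did not overlap. Without replicate 1 or without replicate 2 on low NAA, the adjusted p from limma was 0.074 and 0.072, and without replicate 2 on high NAA the log2 fold change was -1.04, past the fold threshold. This locus has no KEGG entry as a 20-oxidase in the table, an entry that 3 of the 10 loci carry, all 3 among the weakly expressed ones. Among those under the minimum, Niben261Chr03g0392003 was listed at 0.16, 0.08 and 0.22 FPKM on low NAA and at 0 in all libraries on high NAA. The values of Niben261Chr06g1166020 were 0.08, 0.33 and 0 on low NAA and 0.48, 0.50 and 0.56 on high NAA, and it passed the test when no minimum was set (log2 fold change 0.42, limma adjusted p = 0.033). Both were chosen after their values were seen, and values this low rest on few fragments.

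The 3-oxidases, which make the bioactive hormone in the last step, were expressed well above the 20-oxidases and 0 of the 2 tested passed the test (limma; 0 of the 2 also at an unadjusted p under 0.05). The locus on chromosome 8 (Niben261Chr08g1278011) had 27.5, 26.9 and 25.7 FPKM on low NAA and 29.4, 33.8 and 27.1 FPKM on high NAA (log2 fold change 0.16, SE 0.09, limma adjusted p = 0.20). The locus on chromosome 1 (Niben261Chr01g1085002) had 16.6, 16.1 and 15.8 FPKM and 11.7, 13.3 and 16.2 FPKM (log2 fold change -0.23, SE 0.12, limma adjusted p = 0.15). In both genes the libraries of the NAA concentrations overlapped. The gene on chromosome 8 passed the threshold with libraries rescaled to the same total (log2 fold change 0.35, limma adjusted p = 0.015), a scaling that raised the median of all loci from 0.02 to 0.19. The gene on chromosome 1 passed without replicate 3 on high NAA (log2 fold change -0.35, limma adjusted p = 0.027). Added up, the 3 loci held 42.9 ± 1.45 FPKM on low NAA and 43.9 ± 3.13 on high NAA (SD, n = 3).

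The 2-oxidases, which inactivate gibberellins, held more genes that rose on high NAA than genes that fell. Of the 12 tested, 5 rose, 1 fell and 6 did not pass the test. Thus 50% changed, where 41.9% of all loci tested did, 21.7% upwards and 20.2% downwards. The median log2 fold change was 0.56. Fold changes were above 0 in 11 of the 12, and in 16847 of all 32443 loci tested. Of these 11, 2 without a call turned negative when 1 library was left out. The summed level of all 20 loci was 66.9, 72.7 and 70.5 FPKM on low NAA and 112.4, 130.4 and 160.6 FPKM on high NAA, which is 1.92 times higher on average. All libraries on high NAA lay above those on low NAA. The ratio of this sum to the sum of the 3-oxidases, which does not depend on the scaling of the libraries, was 1.51, 1.69 and 1.70 on low NAA and 2.74, 2.76 and 3.71 on high NAA.

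**Figure D2:**
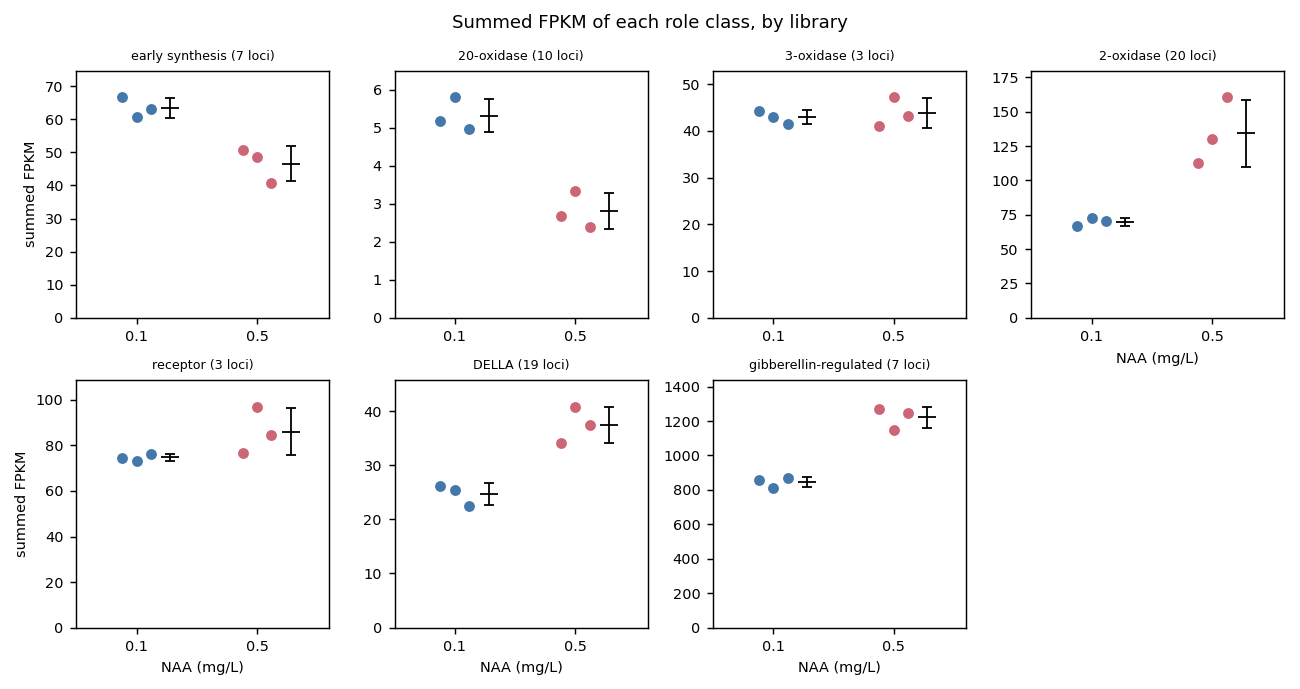
Summed FPKM of the loci in each role class (vertical axis, starting at 0) for the 3 libraries on low NAA and the 3 on high NAA, with the mean and SD beside the points. The 2-oxidase, DELLA and gibberellin-regulated sums lie higher in every library on high NAA, and so do the receptor sums, by a small margin in replicate 1. The early synthesis and 20-oxidase sums lie lower, and the 3-oxidase sums overlap.

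The largest change among the 2-oxidases on the log2(FPKM + 1) scale was that of a 2-beta-dioxygenase 1-like gene on chromosome 2 (Niben261Chr02g0481005). Its FPKM was 7.69, 7.32 and 8.46 in replicates 1, 2 and 3 on low NAA and 23.3, 32.1 and 32.6 on high NAA. The mean was 3.75 times higher, with a log2 fold change of 1.77 (SE 0.14, limma adjusted p = 0.00026). A 2-beta-dioxygenase 2-like gene on chromosome 10 (Niben261Chr10g0178008) also passed both thresholds, with 4.0, 4.29 and 4.42 FPKM on low NAA and 9.71, 10.4 and 18.1 FPKM on high NAA. Its log2 fold change was 1.34 (SE 0.21, limma adjusted p = 0.0026), and replicate 3 on high NAA stood above the other libraries.

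The most strongly expressed 2-oxidase, described as 2-beta-dioxygenase 1 (Niben261Chr08g0823001, chromosome 8), held between 43.0% and 50.8% of the 2-oxidase sum in every library. This locus has no KEGG entry as a 2-oxidase, an entry that 17 of the 20 loci carry, so that its place in the class rests on its description. It had 34.0, 36.9 and 34.0 FPKM on low NAA and 48.3, 59.0 and 78.8 FPKM on high NAA. All libraries on high NAA were higher, and the log2 fold change was 0.78 (SE 0.16, limma adjusted p = 0.0074). The remaining genes of the 5 that rose, named after their values were seen, were a 2-beta-dioxygenase 1-like gene on chromosome 8 (Niben261Chr08g0019014) and a 2-beta-dioxygenase 8 gene on chromosome 10 (Niben261Chr10g1093009). Their levels went from 1.84 ± 0.452 to 4.46 ± 1.05 FPKM and from 0.940 ± 0.297 to 2.1 ± 0.189 FPKM (SD, n = 3), with log2 fold changes of 0.94 and 0.69 (limma adjusted p = 0.0062 and 0.012). The first of these passed the fold threshold with libraries rescaled to the same total and without replicate 2 on low NAA or replicate 3 on high NAA (log2 fold change 1.02 and 1.04). The 2-beta-dioxygenase 8 gene on chromosome 10 also has no KEGG entry as a 2-oxidase.

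The 2-oxidase that fell is described as 2-beta-dioxygenase 8-like (Niben261Chr12g1181013, chromosome 12). It had 0.87, 1.23 and 1.53 FPKM on low NAA and 0.17, 0.09 and 0 FPKM on high NAA (log2 fold change -1.02, SE 0.18, limma adjusted p = 0.0038). It passed the minimum expression only through the libraries on low NAA and not without replicate 3 of these, and without replicate 3 on high NAA its log2 fold change was -0.96. With a pseudocount of 0.1 its log2 fold change was -2.89, which was then the largest change among the 2-oxidases. A 2-beta-dioxygenase 8-like gene on chromosome 14 (Niben261Chr14g1242006), under the minimum, was listed at 0.37, 0.22 and 0.40 FPKM on low NAA and at 0 in all 3 libraries on high NAA. Another on chromosome 7 (Niben261Chr07g1371003) had 0.35, 1.05 and 0.35 FPKM and 0.08, 0 and 0 FPKM. Both passed the test when no minimum was set (limma adjusted p = 0.0092 and 0.034). In contrast, the 2-beta-dioxygenase 8-like gene on chromosome 11 (Niben261Chr11g1308002) had 3.05, 2.55 and 3.41 FPKM on low NAA and 8.22, 2.97 and 6.40 FPKM on high NAA. Replicate 2 on high NAA lay within the range on low NAA (log2 fold change 0.70, limma adjusted p = 0.091), and without it the log2 fold change was 1.05 (limma adjusted p = 0.0030). These 3 genes were also chosen after their values were seen.

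The gene ontology terms of the table divide the 2-oxidases by their substrate, a property that the selection did not use. Enzymes of the C-19 type act on active gibberellins and their direct precursors, and those of the C-20 type on earlier intermediates. Of the 10 loci with the C-19 term, 7 were tested, of which 3 rose and 4 did not pass. Their summed FPKM was 25.2, 28.3 and 28.6 on low NAA and 51.0, 65.2 and 70.9 on high NAA, without overlap. Of the 6 loci with the C-20 term, all described as 2-beta-dioxygenase 8 or 8-like, 4 were tested, 1 rose and 1 fell. Their sum was 7.18, 7.35 and 7.70 FPKM on low NAA and 12.8, 6.07 and 10.2 FPKM on high NAA, where replicate 2 lay below all libraries on low NAA. The difference between the types was not tested, and 41.9% of all loci tested changed, 21.7% upwards and 20.2% downwards. The other 4 2-oxidase loci have neither term, among them the most strongly expressed 2-beta-dioxygenase 1.

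**Figure D3:**
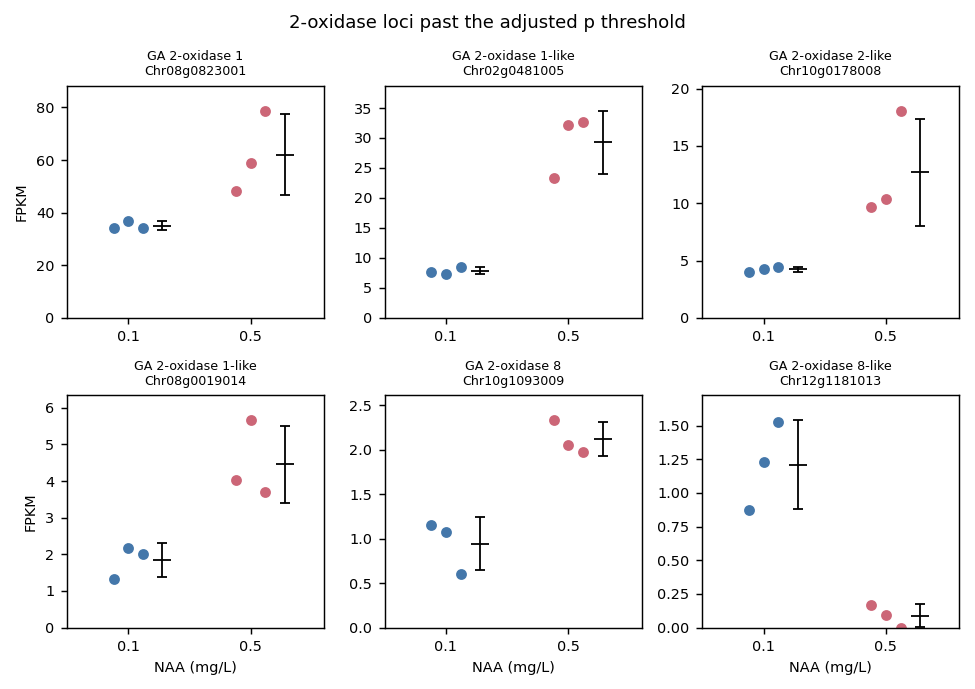
FPKM (vertical axis, starting at 0) of the 6 2-oxidase loci with an adjusted p under 0.05, in the 3 libraries on low NAA and the 3 on high NAA, with the mean and SD beside the points. In 5 loci all libraries on high NAA lie above those on low NAA, and in the 2-oxidase 8-like locus they lie below 0.2 FPKM.

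The 3 receptor genes, all described as GID1B-like, differed in direction, in that 1 rose, 1 fell and 1 did not pass the test. The receptor gene on chromosome 10 (Niben261Chr10g0082001) had 18.2, 21.3 and 19.3 FPKM on low NAA and 35.5, 43.2 and 39.6 FPKM on high NAA. It rose 2.01 times in the mean, a log2 fold change of 0.97 (SE 0.10, limma adjusted p = 0.00054). It lay just under the fold threshold, which it passed with a pseudocount of 0.1, with libraries rescaled to the same total, without replicate 2 on low NAA (log2 fold change 1.03) and without replicate 1 on high NAA (1.04). The receptor gene Niben261Chr07g0678015 on chromosome 7 fell, from 21.6, 22.6 and 25.3 FPKM to 15.3, 17.9 and 15.4 FPKM (log2 fold change -0.49, SE 0.10, limma adjusted p = 0.0063). In both genes the libraries did not overlap. The neighbouring locus Niben261Chr07g0678016 had 34.8, 29.4 and 32.0 FPKM on low NAA and 25.9, 35.9 and 29.6 FPKM on high NAA, which overlap (log2 fold change -0.08, SE 0.12, limma adjusted p = 0.64). Its log2 fold change was 0.11 with libraries rescaled to the same total.

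The gene on chromosome 10 had the lowest FPKM of the 3 receptor genes in every library on low NAA and the highest in every library on high NAA. The summed level of the receptors was 74.7 ± 1.61 and 86.1 ± 10.2 FPKM (SD, n = 3). How fragments shared by similar gene copies were assigned is not given in the sources used here, so that levels of copies with the same description, such as these receptors, are uncertain against each other.

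Among the DELLA genes, 8 of the 19 loci were expressed enough for the test, and 3 of them rose, 1 fell and 4 did not pass. Thus 50% of those tested changed, where 41.9% of all loci did. The 3 that rose are all described as GAI-like, after the Arabidopsis DELLA protein GAI, and all 3 passed both thresholds. The GAI-like gene on an unplaced scaffold (Niben261Scf01177g0000001) had 2.83, 2.68 and 2.15 FPKM on low NAA and 7.06, 10.4 and 9.74 FPKM on high NAA. Its log2 fold change was 1.49 (SE 0.16, limma adjusted p = 0.00065). A second scaffold locus (Niben261Scf03042g0000002) had 0.54, 0.43 and 0.58 FPKM on low NAA and 2.09, 4.1 and 3.84 FPKM on high NAA, a log2 fold change of 1.48 (SE 0.21, limma adjusted p = 0.0017).

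The GAI-like gene on chromosome 15 (Niben261Chr15g0756021) was close to 0 on low NAA, with 0.28, 0.07 and 0.28 FPKM, and had 3.61, 3.87 and 3.79 FPKM on high NAA. Its log2 fold change of 1.98 (SE 0.14, limma adjusted p = 0.00017) was the largest among the 39 genes, and it reached the minimum expression only through the libraries on high NAA. For each of the 3 genes every library on high NAA exceeded every library on low NAA. The sum of the 19 DELLA loci was 24.7 ± 1.95 FPKM on low NAA and 37.5 ± 3.34 on high NAA (SD, n = 3).

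A GAI1-like gene and a gene described as gai had the highest levels of the selected DELLA genes on low NAA, and did not pass the test. Neither did the tested RGL2-like and RGL1-like genes, which were weaker. The GAI1-like gene on chromosome 6 (Niben261Chr06g0630003) had 9.92, 9.18 and 7.78 FPKM on low NAA and 8.16, 9.81 and 9.12 FPKM on high NAA (log2 fold change 0.01, SE 0.12, limma adjusted p = 0.94). The direct neighbour of the chromosome 15 gene, described as gai (Niben261Chr15g0756020), had 7.72, 8.97 and 7.30 FPKM and 6.77, 6.98 and 5.97 FPKM (log2 fold change -0.25, SE 0.11, limma adjusted p = 0.11). Its libraries did not overlap, and it passed the threshold with quantile normalization (log2 fold change -0.36, limma adjusted p = 0.035). The RGL2-like gene on chromosome 7 (Niben261Chr07g1519004) had 2.48, 1.31 and 2.21 FPKM and 2.80, 2.83 and 2.18 FPKM (limma adjusted p = 0.26). The RGL1-like gene on chromosome 3 (Niben261Chr03g0854010) had 0.28, 0.28 and 0 FPKM and 1.36, 0.84 and 0.27 FPKM (log2 fold change 0.58, limma adjusted p = 0.10), and passed the test without replicate 3 on high NAA (0.82, limma adjusted p = 0.032).

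The DELLA gene that fell, matched to a protein of cowpea (Niben261Chr04g0475006, chromosome 4), had 1.36, 1.33 and 1.27 FPKM on low NAA and 0.81, 0.64 and 0.55 FPKM on high NAA (log2 fold change -0.48, SE 0.14, limma adjusted p = 0.030). This call was lost under 7 alternatives that tested the gene, among them the removal of any library other than replicate 1 on high NAA (adjusted p from 0.058 to 0.090 from limma). The other 11 DELLA loci stayed at or below 0.75 FPKM in every library. Of these, 7 are described as RGL1 or RGL1-like, and some lie side by side on chromosomes 10 and 14. In the KEGG column of the table, 11 of the 19 loci are entered as DELLA, including the 3 that rose and the GAI1-like gene, and the gene that fell is not.

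Another 3 loci are entered as DELLA in KEGG and were not selected, since their descriptions lack the word. They were looked up after the descriptions had been read. The GAI1 gene of N. benthamiana (Niben261Chr06g0080002, chromosome 6) was the most strongly expressed DELLA locus of the table, with 11.2, 10.4 and 8.53 FPKM on low NAA and 10.2, 11.6 and 9.80 FPKM on high NAA (log2 fold change 0.07, SE 0.12, limma adjusted p = 0.67). A weak locus matched to the same protein (Niben261Chr06g0082006) had 0.83, 0.84 and 1.13 FPKM and 0.47, 0.42 and 0.34 FPKM (log2 fold change -0.45, limma adjusted p = 0.048). A hypothetical protein on chromosome 15 (Niben261Chr15g0770004) had 2.62 ± 0.318 and 1.86 ± 1.26 FPKM (SD, n = 3; limma adjusted p = 0.27).

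**Figure D4:**
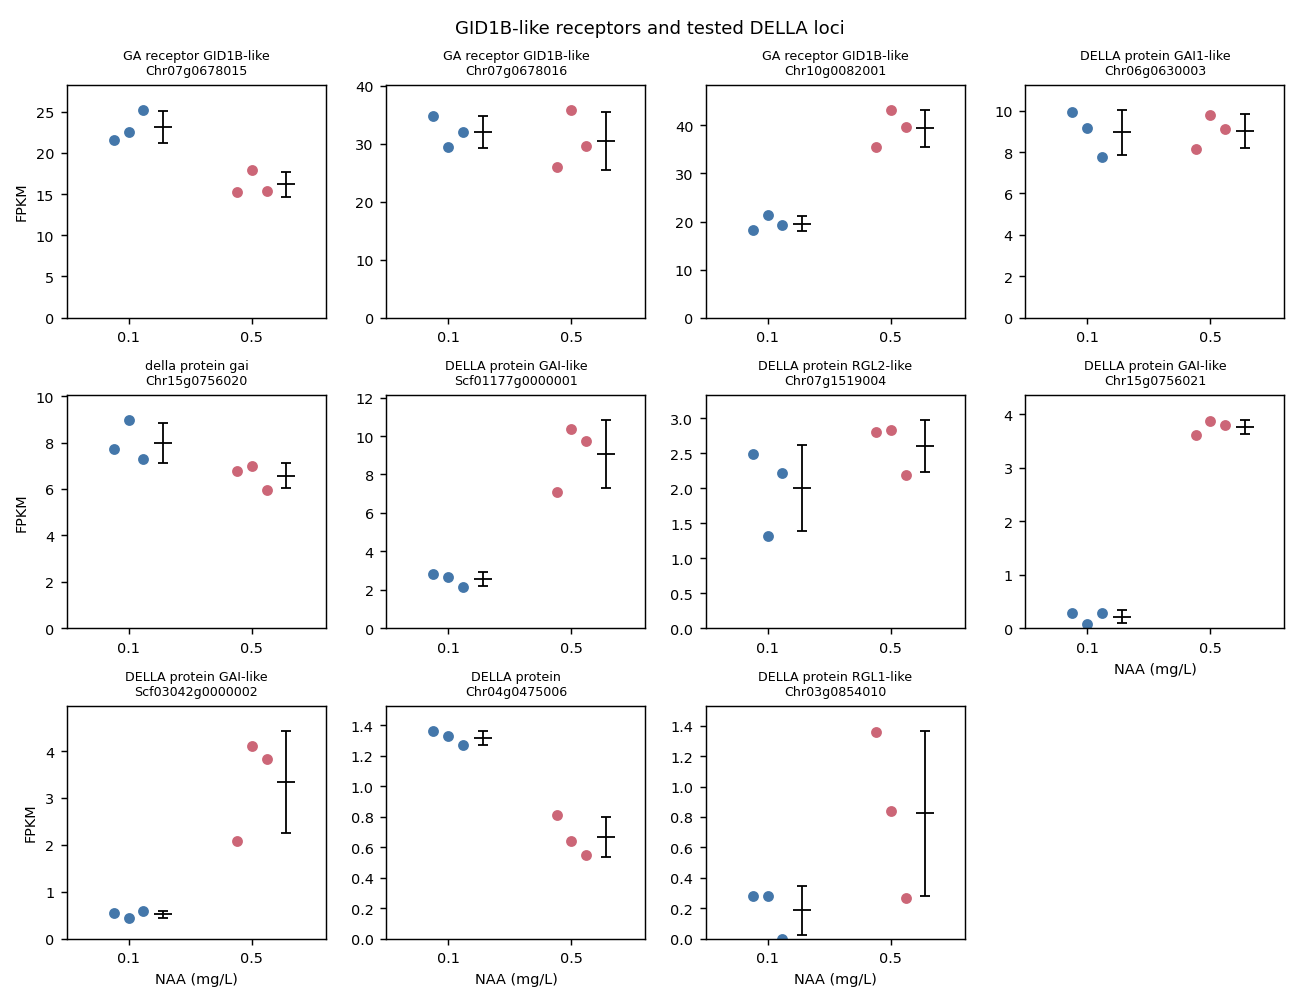
FPKM (vertical axis, starting at 0) of the 3 GID1B-like receptor genes and the 8 DELLA loci tested, in the 3 libraries on low NAA and the 3 on high NAA, with the mean and SD beside the points. The receptor on chromosome 10 and the 3 GAI-like loci lie higher in every library on high NAA, while the GAI1-like locus and the neighbouring receptor on chromosome 7 overlap.

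The gibberellin-regulated proteins are small, cysteine-rich secreted peptides of the GASA family, some of which act against microbes or in cell growth. All 7 were tested, 2 rose, 3 fell and 2 did not pass, so that 71.4% changed, where 41.9% of all loci did. The median log2 fold change of the family was -0.64 (-0.26 without replicate 1 on high NAA). The sum of the family was higher on high NAA, at 846 ± 31.0 against 1221 ± 61.8 FPKM (SD, n = 3), and snakin-2 held between 84.3% and 90.5% of it in every library. Snakin-2 (Niben261Chr09g1352028, chromosome 9), named after an antimicrobial peptide of potato, had 747, 704 and 754 FPKM on low NAA and 1069, 1041 and 1050 FPKM on high NAA. It was the most strongly expressed of the 69 genes, and its rise was even across libraries (log2 fold change 0.52, SE 0.07, limma adjusted p = 0.0017).

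Both genes described as gibberellin-regulated protein 9-like were higher in replicates 1 and 3 on high NAA than in any library on low NAA. On chromosome 11 (Niben261Chr11g1028005) the values were 41.6, 38.7 and 40.7 FPKM on low NAA and 121, 53.8 and 113 FPKM on high NAA. The log2 fold change was 1.14 (SE 0.28, limma adjusted p = 0.014), and without replicate 2 on low NAA the adjusted p was 0.0504 from limma. Without replicate 1 or replicate 3 on high NAA the log2 fold change was 0.94 and 0.98, under the fold threshold. On chromosome 5 (Niben261Chr05g0286012) they were 31.4, 32.3 and 35.0 FPKM and 64.8, 28.3 and 63.6 FPKM (log2 fold change 0.56, SE 0.29, limma adjusted p = 0.16). Replicate 2 on high NAA was the lowest of its group in both genes, and without it the log2 fold change of the gene on chromosome 5 was 0.95 (limma adjusted p = 0.00050).

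Of the genes that fell, gibberellin-regulated protein 14-like (Niben261Chr04g0932007, chromosome 4) had 3.48, 3.51 and 2.45 FPKM on low NAA and 0.88, 0.61 and 0.29 FPKM on high NAA. Its log2 fold change was -1.39 (SE 0.19, limma adjusted p = 0.0015). Gibberellin-regulated protein 6-like (Niben261Chr13g0673008, chromosome 13) had 3.95, 3.71 and 2.67 FPKM on low NAA and 0.55, 1.42 and 0 FPKM on high NAA, a log2 fold change of -1.5 (SE 0.31, limma adjusted p = 0.0074). Both were lower in every library on high NAA. Gibberellin-regulated protein 3-like (Niben261Chr02g0778004, chromosome 2), named after its values were seen, had 27.5, 24.3 and 28.7 FPKM on low NAA and 10.3, 22.6 and 12.4 FPKM on high NAA (log2 fold change -0.86, limma adjusted p = 0.027). Its replicate 2 on high NAA was close to the values on low NAA. Without it the log2 fold change was -1.17 (limma adjusted p = 0.00078), and without any other single library the adjusted p lay between 0.060 and 0.085 from limma. Gibberellin-regulated protein 1-like (Niben261Chr02g1354020) had overlapping libraries, with 4.68 ± 1.36 and 2.86 ± 1.77 FPKM (SD, n = 3; limma adjusted p = 0.18), and an adjusted p of 0.0497 from limma without replicate 3 on high NAA. A further locus of this family outside the selection, matched to a protein gast1 (Niben261Chr16g0496021, chromosome 16), had 165, 168 and 182 FPKM on low NAA and 129, 101 and 122 FPKM on high NAA (log2 fold change -0.55, SE 0.10, limma adjusted p = 0.0046).

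**Figure D5:**
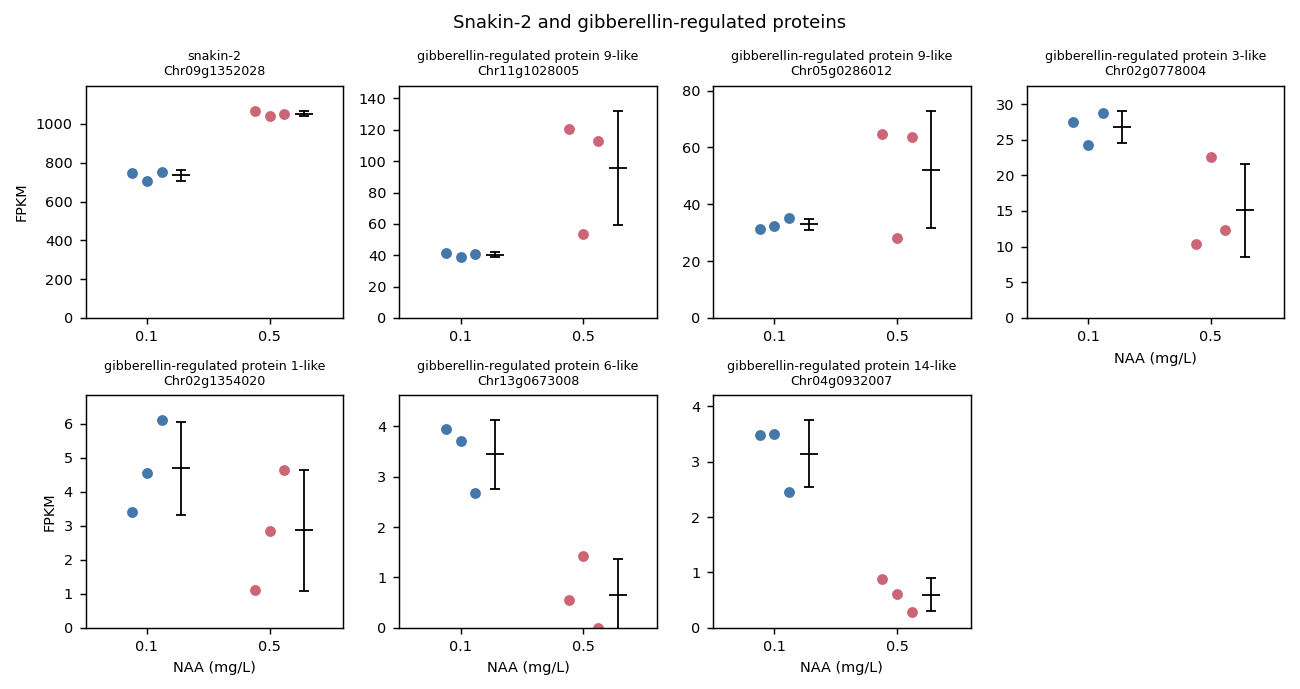
FPKM (vertical axis, starting at 0) of snakin-2 and the 6 loci described as gibberellin-regulated proteins, in the 3 libraries on low NAA and the 3 on high NAA, with the mean and SD beside the points. Replicate 2 on high NAA, the middle point of its group, stands apart from replicates 1 and 3 in both 9-like loci and in the 3-like locus.

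Other genes of the pathway were taken from a list of words set for partners of DELLA, precursor supply and transport. Of its 70 loci, 58 were tested, 15 rose and 10 fell, with a median log2 fold change of 0.16. The share that changed was 43.1%, close to the 41.9% among all loci tested. No locus was described as GID2 or SLEEPY, the F-box proteins that mark DELLA for breakdown. All 3 loci described as SPINDLY, a sugar transferase that modifies DELLA, rose, with log2 fold changes between 0.35 and 0.53. Both tested loci described as scarecrow-like protein 3, a GRAS protein that acts with DELLA, rose. The more changed of them (Niben261Chr17g0019004) went from 8.54 ± 0.365 to 17.3 ± 2.10 FPKM (SD, n = 3; log2 fold change 0.93, limma adjusted p = 0.00074). Of 29 tested loci for indeterminate-domain factors, zinc finger proteins that bind DELLA, 9 rose and 3 fell, together 41.4%, again close to the share among all loci.

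The transcription factors PIF, which DELLA proteins bind and block, and the GAMYB factors, which act downstream of gibberellin in cereal aleurone, were counted in the same way. Of 9 PIF loci tested, 3 fell and 6 did not pass, so that 33.3% changed, where 41.9% of all loci did. The 3 that fell are all described as PIF4. The largest of these falls (Niben261Chr19g0141003, chromosome 19) went from 10.4, 13.1 and 15.1 FPKM to 1.45, 2.61 and 3.59 FPKM (log2 fold change -2.0, SE 0.24, limma adjusted p = 0.00088). Of 5 GAMYB-like loci tested, 0 passed the test in limma and 1 had an unadjusted p under 0.05. Of 6 tested loci with words for a geranylgeranyl diphosphate synthase, the enzyme that supplies the precursor, 4 were lower and 2 did not pass. The share that changed was 66.7%, against 41.9% among all loci. All 4 that fell are described as the small subunit of a heterodimeric synthase. The tested locus described as geranylgeranyl diphosphate synthase 1 (Niben261Chr11g0536002) did not pass (log2 fold change 0.07, limma adjusted p = 0.80). Among 4 tested transporters of the NRT1/PTR family, some of whose members carry gibberellin in Arabidopsis, 1 rose, or 25%, under the share among all loci. That locus is described as NRT1/PTR FAMILY 3.1 (Niben261Chr02g0996008, chromosome 2). It had 8.96, 8.42 and 10.7 FPKM on low NAA and 16.6, 23.3 and 30.3 FPKM on high NAA (log2 fold change 1.20, limma adjusted p = 0.0032). The genes named from these lists were chosen after their values were seen.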

How the data were processed

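The deposited table, made by the authors, holds FPKM values of 6 libraries, rounded to hundredths, with a closest protein match, KEGG entry and gene ontology terms for each locus. The mapping and counting of these libraries are not given in the sources used here, and the study's RNA-seq methods are written for calli at later stages. Treatment and replicate were taken from the labels. Loci with a mean of at least 0.5 FPKM (32443, with 7382 not tested) were compared on the log2(FPKM + 1) scale by the moderated test of limma 3.58.1 (R 4.3.3), whose variances followed a trend with the mean, and p-values were adjusted by Benjamini-Hochberg over all of them. Thresholds were an adjusted p under 0.05 and, for both thresholds, an absolute log2 fold change of at least 1. The pseudocount of 1 makes fold changes of weakly expressed genes smaller than their FPKM ratios. The depth was judged from the steps between low values, since the number of fragments is unknown, and no interval for counting error was computed. The fit and the count of calls were tested on simulated data with 200 of 32443 loci changed. Of these, 187 were recovered past both thresholds, with 2 false calls. Only loci above a set level were changed, so that the recovery of changes in weakly expressed genes was not tested.

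Members and lists were chosen with earlier results of these data known. Named were all members past both thresholds, in each role class the most strongly expressed and the most changed member, and all tested 20-oxidases, 3-oxidases, receptors and DELLA loci. Alternatives were another pseudocount, minimum, scaling or variance model, the replicate number as a block, and each library left out. Figures were drawn with matplotlib 3.10.9.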

Additional observations from a re-analysis of the deposited data

How the results depend on the processing

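Counts of gibberellin genes that rose or fell, with and without the fold threshold, stayed within 1.5 times their values in 52 of 56 comparisons with an alternative. The number that rose lay between 10 and 13 with 1 library left out, against 11, and the number that fell between 5 and 9, against 9. It was 5 without replicate 1, without replicate 2 or without replicate 3 on low NAA. Past both thresholds, 6 to 7 rose and 2 to 5 fell with 1 library left out, and 5 fell without replicate 2 on high NAA. With the replicate number as a block (replicate block), 12 rose and 9 fell, and 6 and 3 past both thresholds. Deviations of same-numbered libraries correlated across genes with r between 0.0096 and 0.022, and each library correlated best with its own number. Values this small cannot tell whether libraries with the same number shared a culture or batch, which the labels do not give.

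Libraries rescaled to the same total (TPM) shifted the median over all tested loci from 0.02 to 0.19 on the log2 scale and the share of higher genes among all loci past both thresholds from 55.3% to 76.0%. Among the gibberellin genes it gave 13 that rose and 6 that fell, and 8 and 2 past both thresholds. Past both thresholds, a pseudocount of 0.1 gave 1737 higher and 1218 lower among all loci against 1051 and 851, and 9 and 4 among the gibberellin genes. A change of sign occurred in 6 tested genes, all without a call under any alternative. They were the receptor gene Niben261Chr07g0678016 (log2 fold change 0.11 with TPM and between -0.20 and 0.028 with 1 library left out), the GAI1-like gene Niben261Chr06g0630003 (-0.0088 with median-of-ratios scaling, -0.097 with quantile normalization, and between -0.075 and 0.082 with 1 library left out), and over all alternatives the ent-copalyl diphosphate synthase Niben261Chr13g0600001 (-0.044 to 0.48), the ent-kaurenoic acid oxidase Niben261Chr09g0705002 (-0.097 to 0.18) and the 2-oxidases Niben261Chr12g0649004 (-0.064 to 0.22) and Niben261Chr07g1231009 (-0.046 to 0.24). The cause was not tested. The summed 2-oxidase level was 2.20 times higher on high NAA after rescaling, the early synthesis sum 0.839 times and the 3-oxidase sum 1.17 times that on low NAA. Values under about 1 FPKM rest on few fragments, and most 20-oxidase and RGL1-like loci were too low to be tested. Without a minimum, 13 genes rose and 11 fell.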
